A study of Mus musculus with 8 samples.

Results

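Translation initiation factors are the proteins that bring the initiator tRNA, the messenger RNA and both ribosomal subunits together at a start codon. Their mRNA levels were followed in mouse bone marrow-derived macrophages while these cells were exposed to RANKL, the cytokine that turns macrophage precursors into bone-resorbing osteoclasts. The members were the genes whose array symbol begins with Eif and a number, without the Eif2ak kinases, and whose signal on 2 or more of the 8 arrays carried a detection p under 0.05. Of 43 such symbols on the array 35 met this filter, among 8663 genes tested. The filter did not depend on a single day, since 34 of the 35 were detected on every array. Eif3h was the exception, with 7 arrays.

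All cells came from C57BL/6 mice aged 6 to 8 weeks. Marrow from the leg bones was kept overnight in 5 ng/ml M-CSF, a macrophage growth factor, and the cells that had not attached were grown in 30 ng/ml M-CSF for 3 days. The attached macrophages were the day 0 group, and the other groups had received 50 ng/ml RANKL with 30 ng/ml M-CSF for 1, 2 or 3 days, with no knockout, transgene or inhibitor in any group. Each day had 2 single-colour MouseRef-8 v2.0 bead arrays. Arrays with M-CSF alone at days 1 to 3 were not analysed here, so RANKL and time in culture cannot be told apart. Whether the pair of arrays for each day stems from separate cultures or mice is not stated, and p-values then measure only the spread between these arrays, which may be technical. No source used here gives the slide of an array, so slide and day cannot be told apart either. The arrays of days 0 and 3 and those of days 1 and 2 were deposited under 2 separate runs of record numbers. Whether these runs mark separate hybridisations is not stated, and their part in the course over days was not tested.

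Initiation starts when eIF2 carries the initiator tRNA to the small ribosomal subunit, where eIF1, eIF1A, eIF3 and eIF5 assemble. The eIF4F complex, made of the cap-binding protein eIF4E, the scaffold eIF4G and the RNA helicase eIF4A, brings this subunit to the capped end of the mRNA. Each round releases eIF2 bound to GDP, which eIF2B recharges with GTP, and both this step and cap binding are well-known control points, through phosphorylation of eIF2 and through the 4E-binding proteins.

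The arrays were of similar quality. Between 43.9% and 44.2% of 25697 probes were detected per array, the median signal was 165 to 181, and values of all genes correlated with r = 0.994 to 0.996 between the arrays of a day and 0.881 to 0.986 between days. The median standard error (SE) of a difference between days was 0.122 on the log2 scale. The cell labels held for most markers. Summed over 9 of 9 osteoclast markers, linear normalised intensity was 1110 and 1250 at day 0 and 84600 and 85000 at day 3, whereas the sum over 5 of 5 macrophage markers went from 50600 and 47100 to 28300 and 26800. The brightest genes, Ctsk and Mmp9 in the first sum and Lyz2 in the other, weigh most. Against day 0, the osteoclast marker Itgb3 was not called on any day (0.03 ± 0.23 in log2 at day 3). Nor was the macrophage marker Itgam (-0.38 ± 0.16). Markers of other cells went both ways. The sum over 6 of 7 neutrophil genes went from 520 and 554 at day 0 to 172 and 177 at day 3. That over 2 of 4 B lineage genes was 1290 and 1390 at day 0 and 1420 and 1430 at day 1. It then came down to 623 and 561 at day 3. The sum over 2 of 6 T and NK genes went from 1360 and 1390 to 100 and 107. Blnk weighs most in the B lineage sum and Il7r in the T and NK sum. Ngp, Cd79a, Ms4a1, Cd3e, Cd3g, Cd3d and Cd8a were not detected. The 4 of 6 detected stromal genes summed to 208 and 251 at day 0, 338 and 367 at day 1, and 279 and 219 at day 3. Among them Dcn, encoding the matrix protein decorin, read 4.84 and 4.83 in log2 at day 0, where it was not detected, 7.43 and 7.47 at day 1, 7.11 and 7.34 at day 2, and 6.27 and 5.70 at day 3, while Col1a1, Bgn and Alpl were not called. Dcn was at least 4.58-fold higher at day 1 (limma adjusted p = 6.37e-05) and fell by 1.24 ± 0.18 from day 2 to day 3. A single gene was detected of each of 3 further lists. The mast cell gene Gata2 (1 of 4) rose at least 1.43-fold by day 1 and 1.41-fold by day 2, the dendritic gene Zbtb46 (1 of 4) rose at least 1.16-fold by day 2 and 1.2-fold by day 3, and the erythroid gene Klf1 (1 of 3) was at least 1.12-fold lower at day 3. Their linear intensities stayed between 23.7 and 63.9. The part of these other cells in the results below was not tested. RNA was taken from whole cultures, so fewer cells of a type and less RNA per cell cannot be told apart.

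Most initiation factors were higher after 1 day of RANKL, and many were lower again later. At day 1, 22 of the 35 rose and 1 fell against day 0 (limma, Benjamini-Hochberg adjusted p under 0.05 over 8663 genes). The share called was 65.7%, where 45.9% of all genes tested were called, and the difference lay in the direction: 62.9% of the factors against 24.0% of all genes rose, and 2.86% against 21.9% fell. Their median change was 0.35 on the log2 scale, beside 0.03 for all genes. At day 2, 14 rose and 2 fell, a called share of 45.7% beside 54.4% of all genes, of which 27.8% rose and 26.6% fell, with a median of 0.18 beside 0.02. By day 3, 9 rose and 6 fell, a called share of 42.9% beside 59.0%, with a median of 0.06 beside -0.01, so that the share that rose (25.7%) lay near that of all genes (29.2%), and 17.1% fell beside 29.8%. These 3 comparisons share the day 0 arrays. When only probes detected on all 8 arrays were fitted, 55.6%, 62.9% and 67.5% of 6556 genes were called at days 1, 2 and 3. At day 1, 1986 of these genes rose and 1662 fell, and of 34 factors in that fit 22 rose and 1 fell.

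The later steps ran mostly downward. From day 1 to day 2, 13 factors fell and 1, Eif4ebp1, rose, a called share of 40.0% beside 48.3% of all genes, and 25.0% of all genes fell. From day 2 to day 3, 9 fell and 1, Eif4a2, rose, a called share of 28.6% beside 21.8%, and 11.3% of all genes fell. These 10 calls came down to 2 and 3 without day 2 replicates 1 and 2 and to 4 and 3 without day 3 replicates 1 and 2, and the share of all genes called to 5.96%, 8.22%, 12.6% and 8.85%. Day 3 set against day 1 gave 17 that fell and 2 that rose, Eif4ebp1 and Eif4a2, a called share of 54.3% beside 59.2%, and 30.3% of all genes fell. The balance over all genes depended on the scaling. With arrays set to a common median in place of quantile normalization, 1541 genes rose and 2680 fell from day 1 to day 2, 581 rose and 1292 fell from day 2 to day 3, and 1839 rose and 3374 fell from day 1 to day 3, where quantile normalization gave 2021 and 2167, 915 and 977, and 2501 and 2625. The factors then gave 1 higher and 13 lower, 1 and 10, and 2 and 23. Over the same comparisons, cyclic loess gave 2093 genes higher and 2107 lower, 1005 and 851, and 2655 and 2475. With cyclic loess the factors gave 1 higher and 11 lower, 1 and 8, and 2 and 16.

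Over the 4 days together, 24 of the 35 passed limma's moderated F test (68.6%, beside 72.4% of all genes). Of these 24, 18 peaked at day 1, 4 at day 3 and 1 each at days 0 and 2, judged by day means. Day 1 was thus the highest day of 75.0% of the factors that passed, and of 27.3% of the 6271 genes that passed. The lowest mean stood at day 0 for 12 and at day 3 for 12. In sequence, 7 factors rose from day 0 to day 1 and fell at both later steps: Eif1a, Eif1ad, Eif3b, Eif3d, Eif4a3, Eif5a and Eif6. Of these, Eif1ad alone kept the last step whichever array was left out. Another 4 rose and then fell from day 1 to day 2 (Eif2b1, Eif2b2, Eif4g2, Eif4h), and 2 rose at day 1 and fell from day 2 to day 3 (Eif2b4, Eif2s2). The share of all genes with these sequences of calls was not counted, so the counts have no background beside them.

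**Figure D1:**
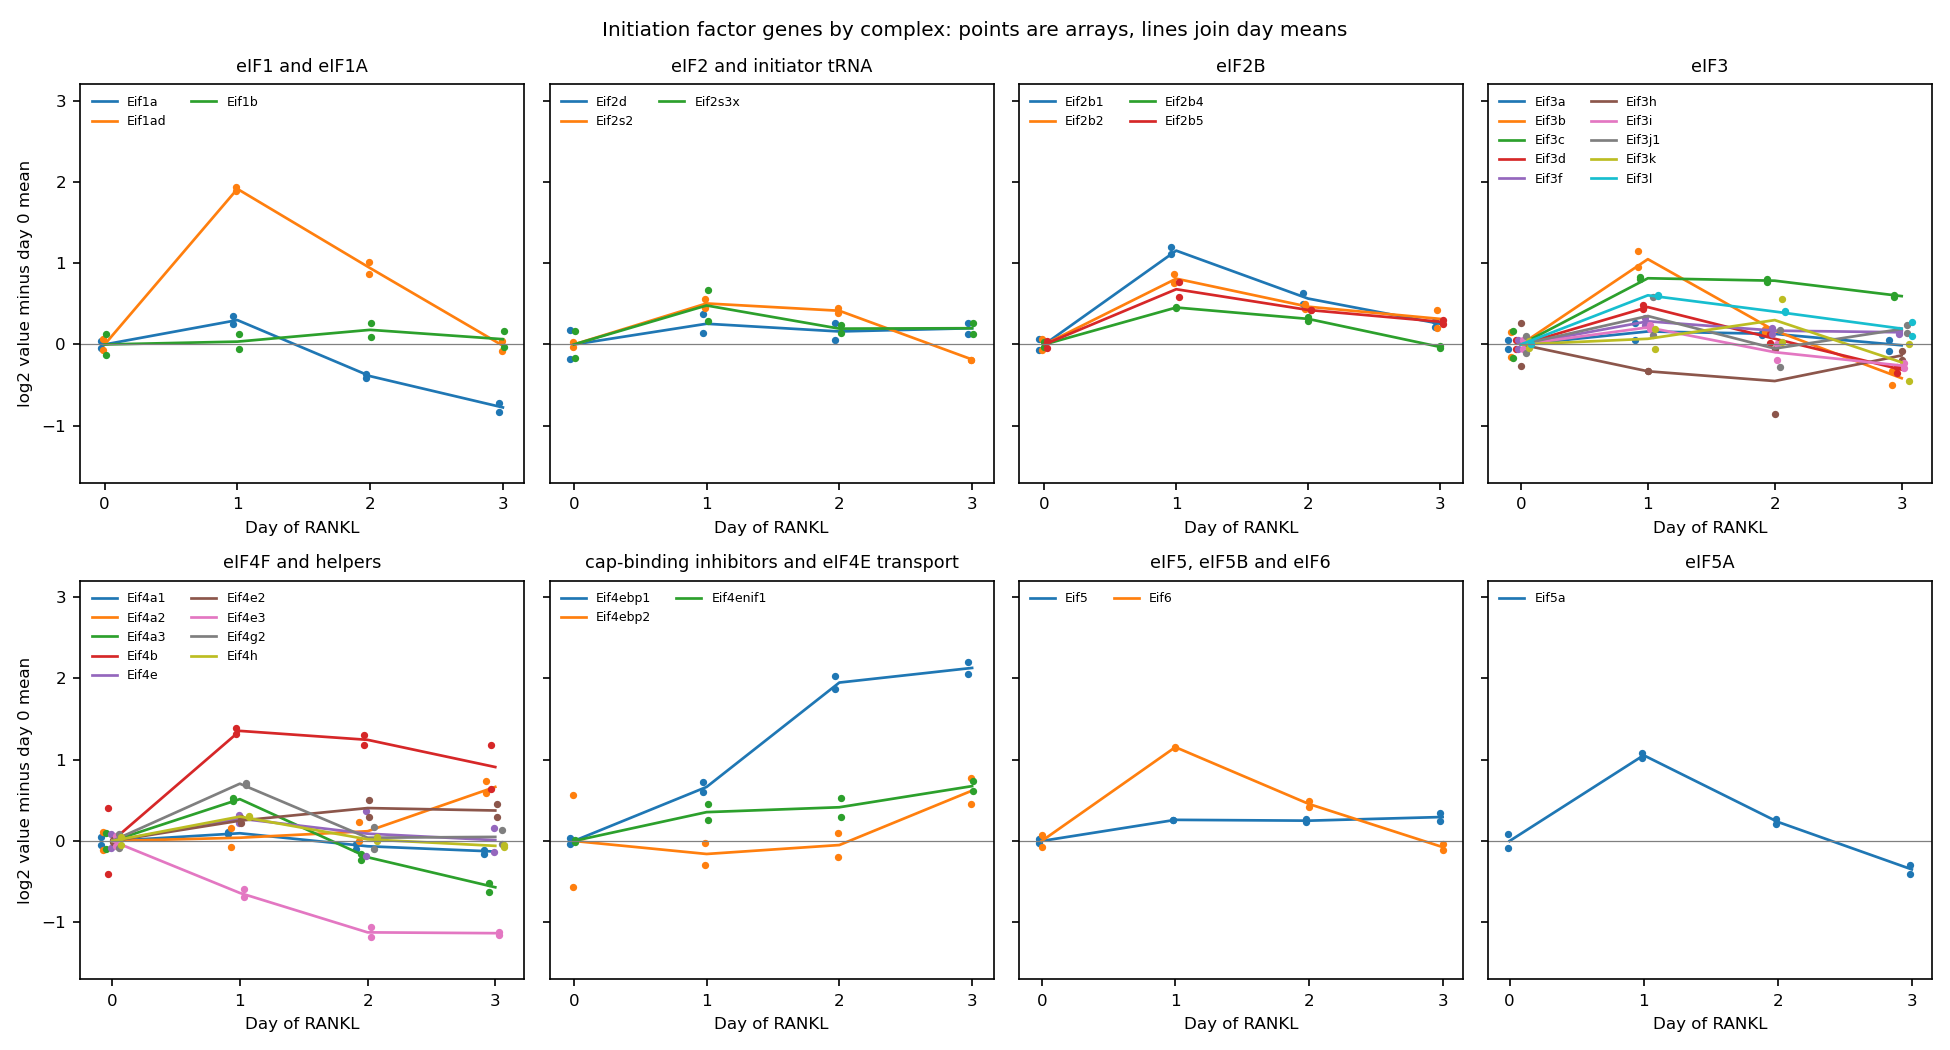
Log2 normalised intensity minus the day 0 mean (vertical axis) by day of RANKL (horizontal axis) for the 35 initiation factor genes, in 8 panels by complex. Points are single arrays, 2 a day, and lines join day means. Eif1ad, Eif2b1, Eif3b, Eif6 and Eif5a stand highest at day 1, whereas Eif4ebp1 climbs to day 3 and Eif4e3 descends.

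Changes were mostly modest. At day 1, 6 called factors had changed at least 2-fold, all upward: Eif1ad, Eif2b1, Eif3b, Eif4b, Eif5a and Eif6, 6 of 35 beside 13.3% of all genes. At day 2 there were 3, Eif4b and Eif4ebp1 upward and Eif4e3 downward (21.7% of all genes), and at day 3 there were Eif4ebp1 and Eif4e3 (26.2% of all genes). From day 1 to day 2, 1 factor had changed this much, Eif4ebp1 (13.7% of all genes), and from day 2 to day 3 none of the 10 called (1.82% of all genes). From day 1 to day 3, 7 had changed at least 2-fold, beside 22.9% of all genes. Without overlap between the arrays of the days stood 29 of 35 factors at day 1, beside 72.8% of all genes, 21 at day 2, beside 76.8%, and 22 at day 3, beside 77.4%. Below, values are log2 normalised intensities in the order replicate 1 and replicate 2, and a change is a difference of day means ± SE from the fit over 8 arrays.

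The transcription factor MYC reads the E-box CACGTG and has many genes of translation among its targets, while ATF4 reads a composite C/EBP-ATF element and acts when eIF2 is phosphorylated. Myc mRNA read 6.10 and 5.82 at day 0, 7.42 and 7.72 at day 1, 5.79 and 5.77 at day 2, and 5.64 and 5.59 at day 3. It rose by 1.61 ± 0.14 at day 1 (limma adjusted p = 0.000142) and differed from day 0 by -0.18 at day 2 (adjusted p = 0.305) and -0.35 at day 3 (adjusted p = 0.0647). RefSeq promoter windows (GRCm38.p6, 250 bases before to 50 after a start, of which a gene may have several) were found for 28 of the 35 factors, in 39 windows. A CACGTG, which reads alike on both strands, lay in a window of 8 of the 28 (28.6%: Eif1b, Eif3a, Eif3f, Eif3k, Eif4a1, Eif4e, Eif4h and Eif5a), of 12.2% of 7115 tested genes with a window, and in 7.15% of all 32851 windows of the table. Of the 8, 3 rose at day 1, and of the 20 with no such letters 15 rose. No window was found for Eif4ebp1, Eif1a, Eif3h, Eif3i, Eif4e3, Eif4g2 and Eif6, so they are in neither count. Of the composite element, searched as TGATGNAAN on both strands, 1 member held a match (Eif2s3x), 3.57% beside 3.05% of tested genes. Shown are a window of Eif5a, which had changed over 2-fold at day 1 and holds the letters, a window of Eif4a1, which holds them and was not called on any day, and the window of Eif1ad, the largest day 1 change, which has none. All are in the direction of the gene, capitals mark the E-box, and no match says only that the letters are not in this window.
Eif5a (chr11:69921337-69921636, minus strand): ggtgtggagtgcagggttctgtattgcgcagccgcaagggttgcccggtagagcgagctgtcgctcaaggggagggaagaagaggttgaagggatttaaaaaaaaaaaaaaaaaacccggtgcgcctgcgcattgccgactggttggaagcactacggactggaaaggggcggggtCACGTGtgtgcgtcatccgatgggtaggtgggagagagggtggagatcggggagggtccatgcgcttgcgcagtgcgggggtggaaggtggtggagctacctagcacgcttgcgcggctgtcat
Eif4a1 (chr11:69672374-69672673, minus strand): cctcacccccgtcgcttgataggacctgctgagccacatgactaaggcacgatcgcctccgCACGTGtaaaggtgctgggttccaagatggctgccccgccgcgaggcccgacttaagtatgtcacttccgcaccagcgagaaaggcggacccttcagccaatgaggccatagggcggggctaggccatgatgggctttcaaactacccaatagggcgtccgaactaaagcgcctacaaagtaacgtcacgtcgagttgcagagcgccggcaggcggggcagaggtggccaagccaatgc
Eif1ad (chr19:5366563-5366862, plus strand): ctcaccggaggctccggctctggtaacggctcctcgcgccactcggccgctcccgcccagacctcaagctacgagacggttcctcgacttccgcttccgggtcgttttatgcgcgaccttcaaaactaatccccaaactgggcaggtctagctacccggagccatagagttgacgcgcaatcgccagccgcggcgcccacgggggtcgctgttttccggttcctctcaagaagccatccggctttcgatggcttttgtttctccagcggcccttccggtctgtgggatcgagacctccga
The E-box began 74 bases before the start of this Eif5a window, the closest of its windows that hold one, and 189 bases before the start in Eif4a1. The Eif5a window at the outermost start of the gene (chr11:69921909-69922208) held no E-box. Nor did the Eif4e window at the outermost start of that gene (chr3:138525941-138526240), and the matches of Eif4e lay in another window.

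In the group of eIF1 and eIF1A genes, Eif1ad moved most. Eif1ad (chr19:5366813-5371518), whose protein carries an eIF1A-like domain, read 8.14 and 8.27 at day 0, 10.14 and 10.10 at day 1, 9.07 and 9.22 at day 2, and 8.13 and 8.25 at day 3. Both day 1 arrays stood far above all others and the day 3 arrays overlapped day 0. The raw signal showed the same course, from 442 and 444 through 1457 and 1318 to 376 and 416. Eif1ad rose by 1.92 ± 0.10, or 3.78-fold, at day 1 (limma adjusted p = 1.77e-05), was still 0.94 ± 0.10 above day 0 at day 2, and differed by -0.01 ± 0.10 at day 3 (adjusted p = 0.923). It fell by 0.98 from day 1 to day 2 and by 0.95 from day 2 to day 3.

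Eif1a, an eIF1A gene, read 11.45 and 11.36 at day 0, 11.75 and 11.66 at day 1, 11.04 and 10.99 at day 2, and 10.57 and 10.69 at day 3. The days did not overlap, with day 1 highest and day 3 lowest. Its rise at day 1 was 0.30 ± 0.09 (limma adjusted p = 0.03), and it fell against day 0 by 0.39 ± 0.09 at day 2 (adjusted p = 0.00824) and 0.78 ± 0.09, or 1.72-fold, at day 3 (adjusted p = 0.000263). The day 1 call alone was lost when either array of day 0, 1 or 2 was left out (adjusted p up to 0.14). Eif1b, the paralogue of the start-codon factor eIF1, differed by 0.03 to 0.18 and was not called.

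The eIF2 subunits rose moderately at day 1. Eif2s2, the beta subunit, read 10.35 and 10.30 at day 0, 10.89 and 10.77 at day 1, 10.71 and 10.77 at day 2, and 10.14 and 10.14 at day 3. It stayed up for 2 days and then lay below day 0 without passing the test. The changes were 0.51 ± 0.08 at day 1 (limma adjusted p = 0.00286), 0.41 ± 0.08 at day 2 and -0.18 ± 0.08 at day 3 (adjusted p = 0.102), with a fall of 0.60 from day 2 to day 3. Eif2s3x, the X-linked gamma subunit, read 10.60 and 10.27 at day 0, 11.10 and 10.73 at day 1, 10.68 and 10.58 at day 2, and 10.57 and 10.70 at day 3. Its rise of 0.48 ± 0.16 (adjusted p = 0.0478) was lost without day 0 replicate 2, day 1 replicate 1, or any array of days 2 and 3 (adjusted p up to 0.23). Eif2d, which can deliver tRNA without GTP, differed by 0.16 to 0.26 and was not called.

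All 4 measured subunits of eIF2B, the exchange factor that recharges eIF2, rose at days 1 and 2, where 24.0% and 27.8% of all genes rose, with medians of 0.75 and 0.45. Eif2b1, the alpha subunit (chr5:124570214-124579131), read 9.85 and 9.99 at day 0, 11.12 and 11.03 at day 1, 10.55 and 10.42 at day 2, and 10.21 and 10.14 at day 3. The days formed separate steps, with day 1 on top. It rose by 1.16 ± 0.10, or 2.23-fold, at day 1 (limma adjusted p = 0.000131) and by 0.57 ± 0.10 at day 2 (adjusted p = 0.00216), and the day 3 difference was 0.26 ± 0.10 (adjusted p = 0.0544). A second Eif2b1 probe rose by 0.90 ± 0.17 at day 1 and differed by 0.41 ± 0.17 at day 2 (adjusted p = 0.0878). Eif2b2, the beta subunit, read 9.51 and 9.64 at day 0, 10.33 and 10.44 at day 1, 10.07 and 10.01 at day 2, and 10.00 and 9.78 at day 3. It rose by 0.81 ± 0.11, 0.47 ± 0.11 and 0.32 ± 0.11 at days 1, 2 and 3.

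Eif2b5, the catalytic epsilon subunit, read 10.78 and 10.69 at day 0, 11.51 and 11.32 at day 1, 11.16 and 11.16 at day 2, and 11.04 and 10.99 at day 3. All 6 later arrays stood above day 0. It rose by 0.68 ± 0.10, 0.43 ± 0.10 and 0.28 ± 0.10. Eif2b4, the delta subunit, read 10.72 and 10.67, then 11.16 and 11.14, then 10.99 and 11.03, and at day 3 10.65 and 10.68. The day 3 arrays overlapped day 0, with changes of 0.45 ± 0.08, 0.32 ± 0.08 and -0.03 ± 0.08. From day 1 to day 3 all 4 subunits fell, by 0.40 to 0.90, where 30.3% of all genes fell. The smaller calls were not firm: that of Eif2b2 at day 3 (limma adjusted p = 0.0403) was lost without any array but day 3 replicate 2 (up to 0.193) and in 4 of 10 other settings (up to 0.302), that of Eif2b5 at day 3 (0.0386) was lost without any array of days 0, 2 or 3 (up to 0.143) and in 3 of 10 other settings (up to 0.311), and at day 2 Eif2b2 was lost without replicate 1 of day 0 or 2 (up to 0.0524) and Eif2b4 without replicate 2 of day 0 or 2 (up to 0.0642).

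eIF3 is the largest initiation complex and the platform that joins the small subunit to eIF4F. Of 10 measured subunits, 5 rose at day 1 and none fell, 2 rose at day 2, and 1 rose and 2 fell at day 3, called shares of 50.0%, 20% and 30.0% beside 45.9%, 54.4% and 59.0% of all genes. Eif3b, a core scaffold subunit (chr5:140419305-140443358), read 10.56 and 10.86 at day 0, 11.66 and 11.86 at day 1, 10.90 and 10.86 at day 2, and 10.38 and 10.21 at day 3. Day 1 stood clear of the other days. It rose by 1.05 ± 0.13, or 2.07-fold, at day 1 (limma adjusted p = 0.000832), fell by 0.88 from day 1 to day 2, and at day 3 lay 0.41 ± 0.13 below day 0, written as a change of -0.41 (adjusted p = 0.0335).

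Eif3c, a further core subunit, kept its rise. It read 9.19 and 9.53 at day 0, 10.19 and 10.16 at day 1, 10.16 and 10.13 at day 2, and 9.97 and 9.94 at day 3. All 6 later arrays stood above both day 0 arrays, with changes of 0.81 ± 0.12, 0.78 ± 0.12 and 0.60 ± 0.12 (limma adjusted p = 0.00161, 0.00138 and 0.00423). Eif3l read 12.61 and 12.61 at day 0, 13.22 and 13.21 at day 1, 13.02 and 13.01 at day 2, and 12.72 and 12.89 at day 3. It rose by 0.61 ± 0.09 and 0.40 ± 0.09 at days 1 and 2, and the day 3 difference of 0.20 ± 0.09 was not called (adjusted p = 0.0948).

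Eif3d, the subunit that binds the cap of some mRNAs in human cells, read 12.72 and 12.83 at day 0, 13.21 and 13.26 at day 1, 12.90 and 12.79 at day 2, and 12.50 and 12.43 at day 3. It rose by 0.46 ± 0.09 at day 1 (limma adjusted p = 0.00526) and fell by 0.31 ± 0.09 at day 3 (adjusted p = 0.0221). Eif3f rose by 0.29 ± 0.09 at day 1 (limma adjusted p = 0.0302). The other 5, Eif3a, Eif3h, Eif3i, Eif3j1 and Eif3k, were not called on any day against day 0, with differences of -0.45 to 0.35. Of these, Eif3i fell from day 1 to day 2 by 0.31 ± 0.10 (adjusted p = 0.041). A dimmer Eif3i probe was called, with a rise of 0.46 ± 0.09 at day 1 (adjusted p = 0.00599) and a fall of 0.25 ± 0.09 at day 3 (adjusted p = 0.0499), and the remaining Eif3i probe was not called against day 0. The day 3 call of Eif3b was lost without replicate 2 of day 0 or 3 or either day 2 array (adjusted p up to 0.163), that of Eif3d without replicate 2 of day 0 or 3 (up to 0.0981), and the day 1 call of Eif3f without day 0 replicate 2 or either day 1 array (up to 0.14).

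**Figure D2:**
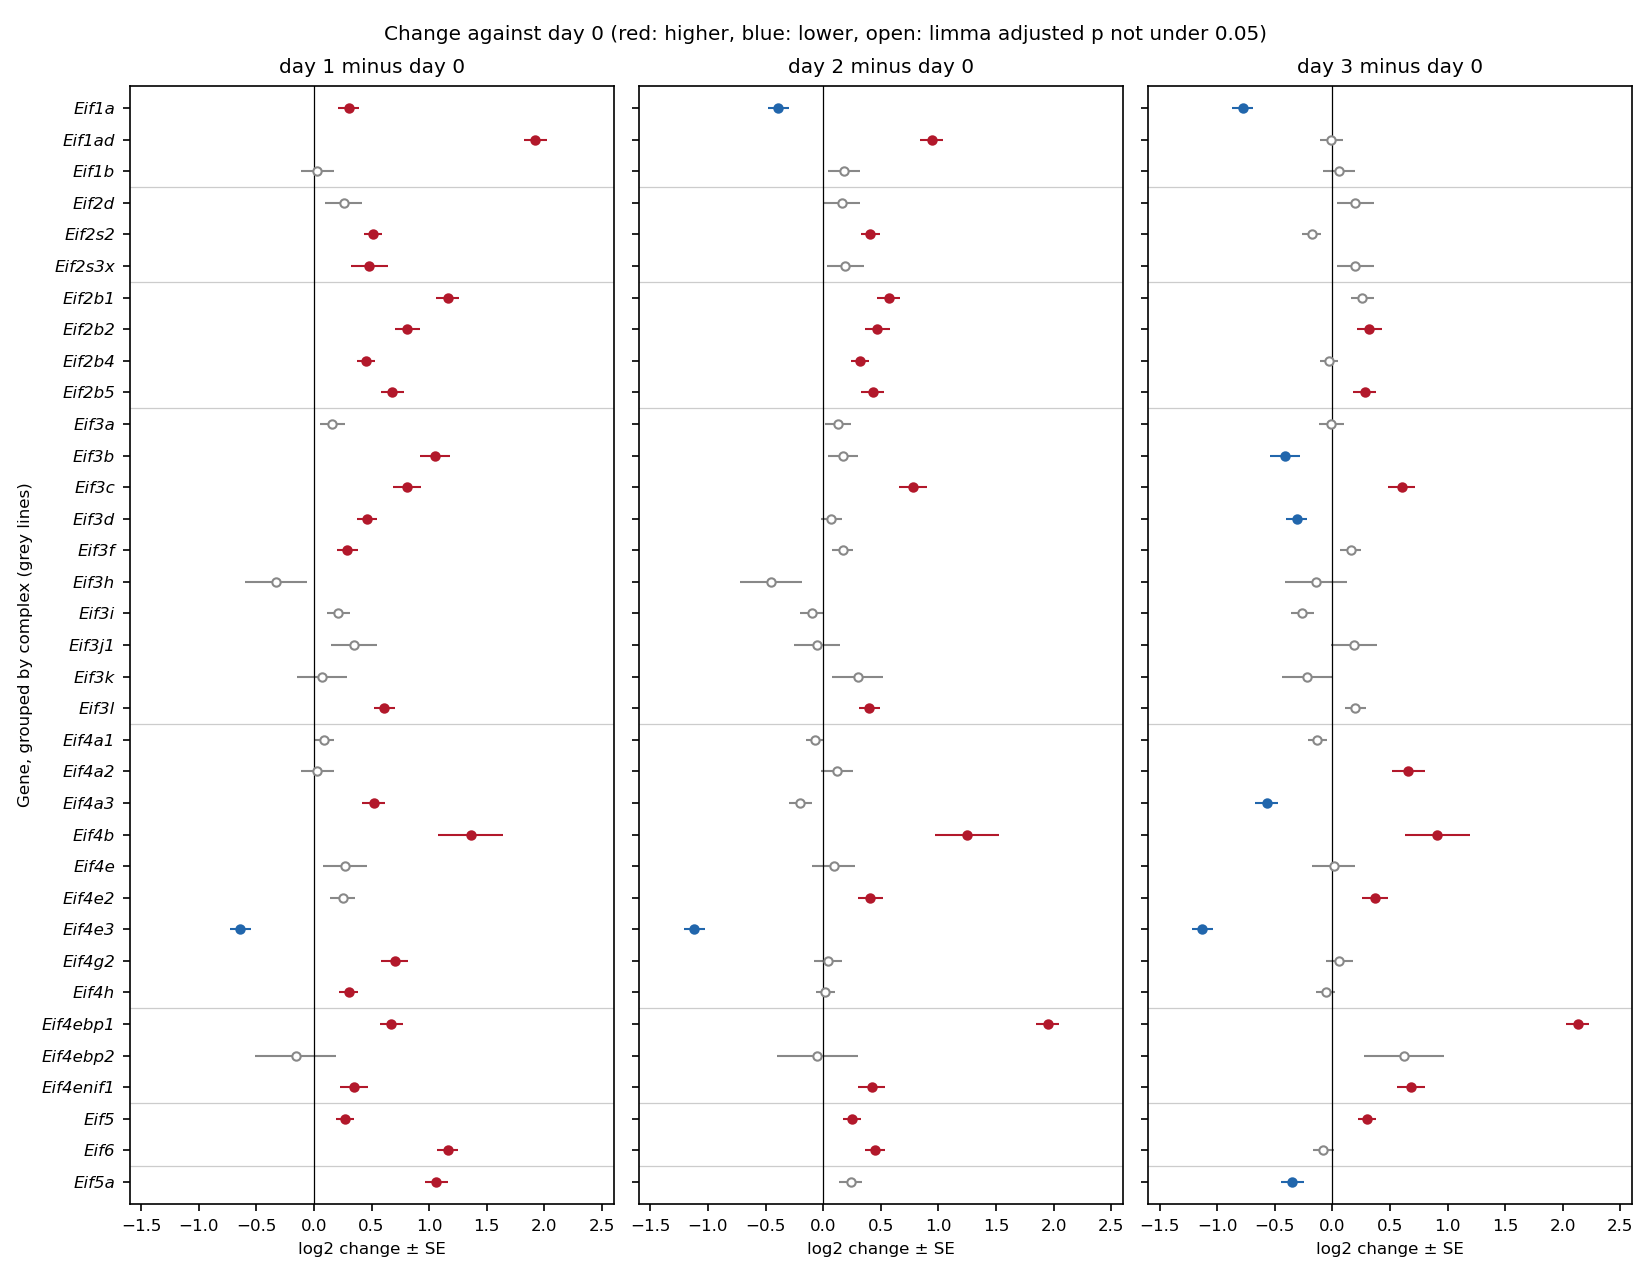
Log2 change against day 0 ± SE (horizontal axis) at days 1, 2 and 3 for each of the 35 genes (vertical axis, grey lines between complexes), from limma on 2 arrays a day. Filled red points rose (22, 14 and 9 genes), filled blue points fell (1, 2 and 6), and open points did not pass.

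Genes of eIF4F and its helpers split, with 4 higher and 1 lower of 9 at day 1, 2 and 1 at day 2, and 3 and 2 at day 3. The called shares were 55.6%, 33.3% and 55.6% beside 45.9%, 54.4% and 59.0% of all genes. Eif4b, which stimulates the helicase eIF4A, read 6.73 and 7.55 at day 0, 8.46 and 8.53 at day 1, 8.32 and 8.45 at day 2, and 8.32 and 7.78 at day 3. All later arrays exceeded both day 0 arrays, which lay far apart themselves. It rose by 1.36 ± 0.28, or 2.57-fold, at day 1 (limma adjusted p = 0.00723), by 1.25 ± 0.28 at day 2 and by 0.91 ± 0.28 at day 3 (adjusted p = 0.0275). The day 3 call was lost without replicate 1 of day 0 or of day 3 (adjusted p up to 0.138), and the day 1 value ran from 0.78 to 1.77 over all settings tried. Eif4h, the related helper, read 13.87 and 13.78 at day 0, 14.13 and 14.12 at day 1, 13.87 and 13.82 at day 2, and 13.78 and 13.75 at day 3. It rose by 0.30 ± 0.08 at day 1 (adjusted p = 0.02), a call lost without day 0 replicate 2 or either day 1 array (adjusted p up to 0.0857).

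The helicase isoforms took different courses. Eif4a1 (chr11:69666936-69672423), the main isoform in dividing cells, differed from day 0 by 0.09, -0.07 and -0.13 and was not called. Eif4a2 read 12.91 and 12.68 at day 0, 12.95 and 12.72 at day 1, 12.80 and 13.03 at day 2, and 13.39 and 13.53 at day 3. Only day 3 stood apart, with a rise of 0.66 ± 0.14 against day 0 (limma adjusted p = 0.00529) and of 0.55 ± 0.14 against day 2 (adjusted p = 0.0348). A second Eif4a2 probe rose on all 3 days, by 0.84 ± 0.17, 0.89 ± 0.17 and 1.80 ± 0.17, so both probes rose at day 3 and they differed in call at days 1 and 2. Eif4a3, which sits in the exon junction complex rather than eIF4F, read 11.63 and 11.82 at day 0, 12.22 and 12.26 at day 1, 11.56 and 11.49 at day 2, and 11.21 and 11.10 at day 3. It rose by 0.52 ± 0.10 at day 1 (adjusted p = 0.00534) and fell by 0.57 ± 0.10 at day 3 (adjusted p = 0.00225), the reverse of Eif4a2 from day 1 to day 3 (a fall of 1.08 against a rise of 0.63).

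Eif4g2, a scaffold that lacks the eIF4E-binding region, read 10.14 and 10.31 at day 0, 10.94 and 10.92 at day 1, 10.40 and 10.13 at day 2, and 10.36 and 10.19 at day 3. Day 1 alone stood above the rest, with a rise of 0.70 ± 0.12 (limma adjusted p = 0.00359). Its second, dimmer probe differed by -0.19 ± 0.22 at day 1 (adjusted p = 0.523), and averaging both probes left 0.26 (adjusted p = 0.146). For 15 factors more than 1 probe was detected. All probes had the same call in 9 of them at day 1, 11 at day 2 and 10 at day 3, and in 0 were probes called higher and lower in the same comparison. Values given for single further probes come from a fit adjusted over all probes.

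The cap-binding proteins diverged as well. Eif4e3 (chr6:99621879-99692873), an atypical cap-binding protein, was the only factor that fell on all 3 days. It read 10.62 and 10.75 at day 0, 10.09 and 10.00 at day 1, 9.62 and 9.50 at day 2, and 9.53 and 9.57 at day 3. The arrays of days 0, 1 and 2 formed descending steps and days 2 and 3 overlapped. Against day 0 it fell by 0.64 ± 0.09 at day 1 (limma adjusted p = 0.00144), by 1.12 ± 0.09 at day 2 and by 1.13 ± 0.09, or 2.19-fold, at day 3 (adjusted p = 5.06e-05).

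Eif4e2, the cap-binding homologue that represses translation of some mRNAs, read 12.12 and 12.14 at day 0, 12.35 and 12.41 at day 1, 12.43 and 12.64 at day 2, and 12.59 and 12.42 at day 3. It stood above day 0 on all later arrays and rose by 0.41 ± 0.11 at day 2 (limma adjusted p = 0.0156) and 0.37 ± 0.11 at day 3 (adjusted p = 0.02). These calls were lost without either day 0 array, and without day 2 replicate 2 or day 3 replicate 1 respectively (adjusted p up to 0.0932 and 0.102). Its other probes also rose at day 2, by 0.40 ± 0.12 and 0.73 ± 0.16, and the one with the larger change rose at day 1 too, by 0.69 ± 0.16. Eif4e itself read between 5.50 and 6.05 on the 8 arrays, with differences of 0.27, 0.09 and 0.01 that were not called. Its mean raw signal was 199, where probes of undetected factors averaged 152 to 164, so a modest change was not detectable at this signal.

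**Figure D3:**
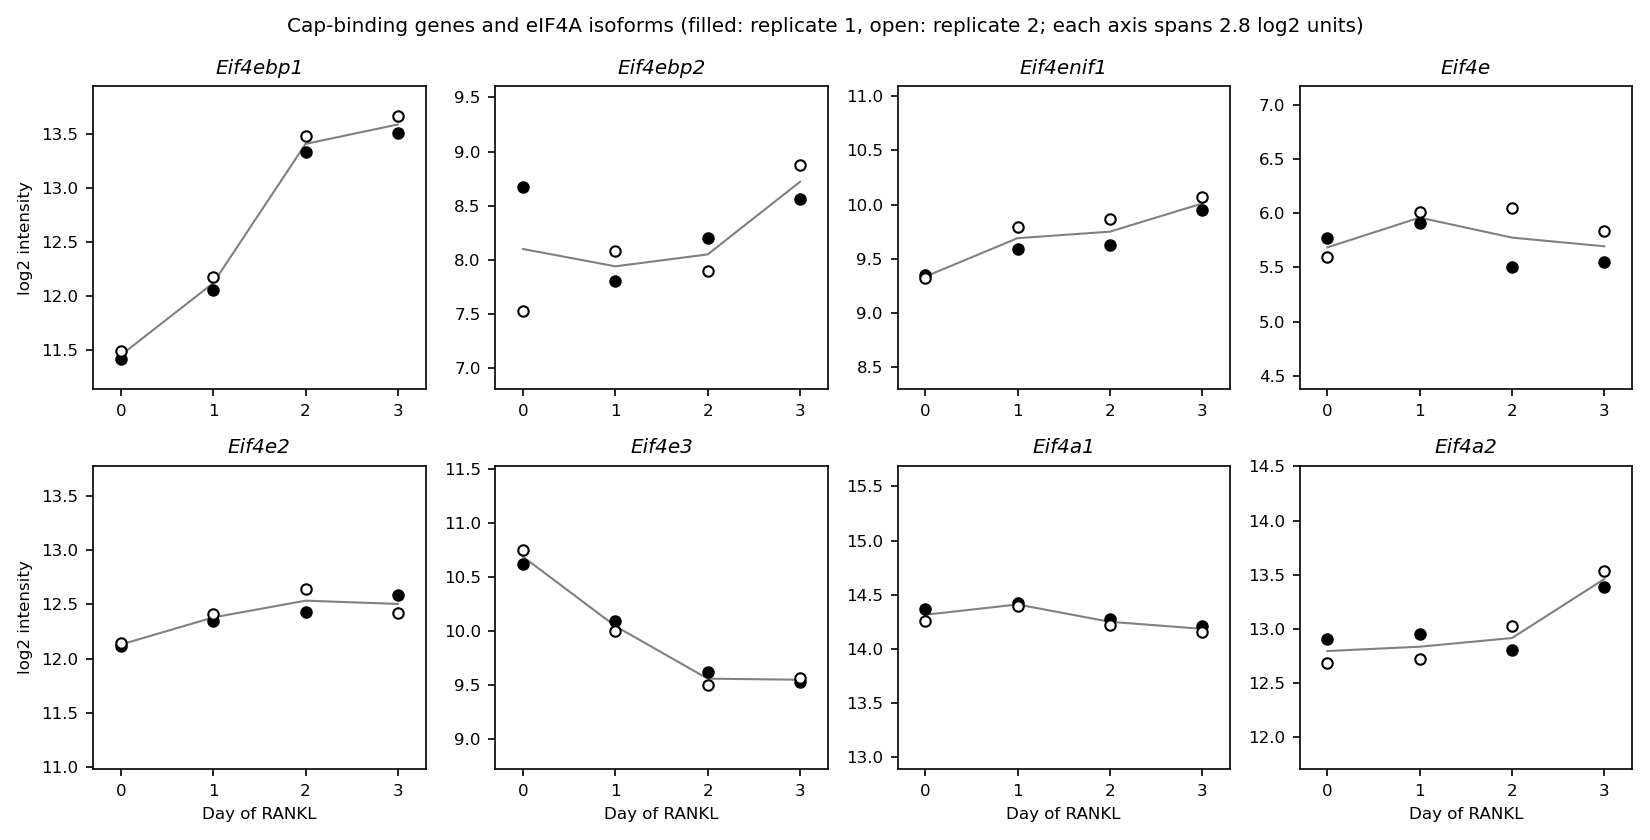
Log2 normalised intensity (vertical axes, each spanning the same number of log2 units) by day of RANKL for 8 cap-binding and helicase genes. Filled points are replicate 1, open points replicate 2, and lines join day means. Eif4ebp1 climbs from 11.42 and 11.49 to 13.51 and 13.66, Eif4e3 descends from 10.62 and 10.75 to 9.53 and 9.57, and the replicates of Eif4ebp2 at day 0 lie far apart.

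The largest and steadiest change of all members was in Eif4ebp1 (chr8:27260327-27275656), the 4E-binding protein that holds eIF4E away from eIF4G until mTORC1 phosphorylates it. It read 11.42 and 11.49 at day 0, 12.06 and 12.18 at day 1, 13.33 and 13.48 at day 2, and 13.51 and 13.66 at day 3. Each day lay above the day before without overlap. The rise was 0.67 ± 0.10 at day 1 (limma adjusted p = 0.00183), 1.95 ± 0.10, or 3.86-fold, at day 2 (adjusted p = 7.82e-06) and 2.13 ± 0.10, or 4.37-fold, at day 3 (adjusted p = 4.04e-06). The step from day 1 to day 2 was 1.28 ± 0.10, while that from day 2 to day 3, 0.18 ± 0.10, did not pass (adjusted p = 0.257). Over all settings tried the day 3 change ran from 2.05 to 2.20.

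The related inhibitor Eif4ebp2 read 8.67 and 7.53 at day 0, 7.80 and 8.08 at day 1, 8.20 and 7.90 at day 2, and 8.56 and 8.88 at day 3. Its day 0 arrays spanned most of the other values, and the day 3 difference of 0.62 ± 0.35 was not called (limma adjusted p = 0.166). Eif4enif1, the carrier that takes eIF4E into the nucleus and to sites of mRNA decay, read 9.35 and 9.32 at day 0, 9.59 and 9.79 at day 1, 9.63 and 9.87 at day 2, and 9.95 and 10.07 at day 3. All later arrays exceeded day 0, and the rise reached 0.68 ± 0.12, or 1.60-fold, at day 3 (adjusted p = 0.00246). The smaller rises of 0.35 ± 0.12 at day 1 and 0.42 ± 0.12 at day 2 were lost without any array of days 0, 1 or 3 (adjusted p up to 0.232) and without either day 0 array or day 2 replicate 2 (up to 0.131). A second Eif4enif1 probe differed by 0.12 ± 0.14 at day 2 (adjusted p = 0.504) and rose by 0.47 ± 0.14 at day 3.

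Eif6 and Eif5, grouped here with the undetected joining factor gene Eif5b, both rose at day 1. Eif6 (chr2:155819837-155826925), which keeps large subunits from joining too early and takes part in making them, read 12.21 and 12.35 at day 0, 13.43 and 13.44 at day 1, 12.70 and 12.77 at day 2, and 12.17 and 12.24 at day 3. The day 3 arrays overlapped day 0. It rose by 1.16 ± 0.09, or 2.23-fold, at day 1 (limma adjusted p = 9.05e-05) and by 0.45 ± 0.09 at day 2 (adjusted p = 0.00435), and differed by -0.08 at day 3 (adjusted p = 0.484). Eif5, which triggers GTP hydrolysis on eIF2, read 12.71 and 12.67 at day 0, 12.95 and 12.95 at day 1, 12.96 and 12.92 at day 2, and 12.93 and 13.04 at day 3. It rose by 0.27 ± 0.08, 0.25 ± 0.08 and 0.30 ± 0.08, small steps that were not firm. Those of days 1 and 2 were lost without any array of days 0, 1 or 2. They were also lost in 3 and 4 of 10 other settings, among them the replicate block. That of day 3 was lost without replicate 2 of day 0 or 3. A second Eif5 probe rose by 0.58 ± 0.10, 0.52 ± 0.10 and 0.59 ± 0.10, while another differed by 0.07 ± 0.18, 0.11 ± 0.18 and 0.28 ± 0.18 and was not called.

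Eif5a (chr11:69916712-69921958) encodes the hypusine-bearing protein that, despite its name, acts mainly in elongation and termination. It read 12.60 and 12.77 at day 0, 13.71 and 13.77 at day 1, 12.95 and 12.89 at day 2, and 12.39 and 12.28 at day 3. Day 1 was well above and day 3 below every other day. It rose by 1.06 ± 0.10, or 2.08-fold, at day 1 (limma adjusted p = 0.00019) and fell by 0.35 ± 0.10 at day 3 (adjusted p = 0.0169, up to 0.0853 without replicate 2 of day 0 or 3, which loses the call). A second Eif5a probe gave 0.97 ± 0.11, 0.24 ± 0.11 and -0.30 ± 0.11.

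**Figure D4:**
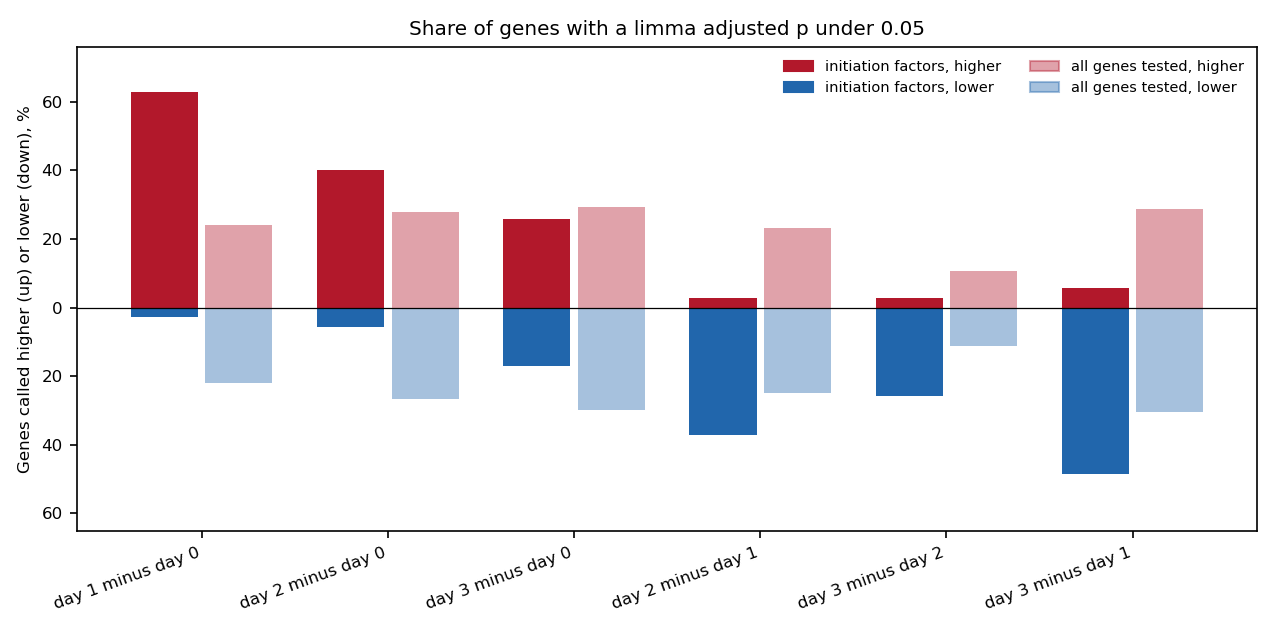
Share of genes (vertical axis, %, higher upward and lower downward) with a limma adjusted p under 0.05 in 6 comparisons of days, for the 35 initiation factors (dark bars) and all 8663 genes tested (pale bars). At day 1, 62.9% of the factors and 24.0% of all genes were higher, and from day 1 to day 3, 48.6% and 30.3% were lower.

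The 8 undetected symbols were Eif1ax, Eif2s3y, Eif3e, Eif3m, Eif4e1b, Eif4ebp3, Eif5a2 and Eif5b, and Eif3e was above background on 1 array. No member carried the symbols Eif1, Eif2a, Eif2b3, Eif2s1, Eif3g, Eif4g1 or Eif4g3, so the eIF4F scaffold proper and the phosphorylated subunit of eIF2 are not described. Paralogues such as Eif4a1 and Eif4a2, Eif1a and Eif1ax, or Eif2s3x and Eif2s3y are near copies, and whether their probes bind each other's cRNA was not tested.

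The other genes of translation are read against called shares of 45.9%, 54.4% and 59.0% of all genes at days 1, 2 and 3. Of 8 measured eIF2 kinases, phosphatase subunits and their regulators, 2 rose and 3 fell at day 1, 4 and 1 at day 2, and 3 and 3 at day 3, called shares of 62.5%, 62.5% and 75%. Ppp1r15a, the inducible subunit that directs a phosphatase to eIF2, rose by 1.67 ± 0.08, 3.05 ± 0.08 and 3.48 ± 0.08, from 7.09 and 7.19 at day 0 to 10.59 and 10.66 at day 3, or 11.2-fold (limma adjusted p = 3.1e-07). Eif2ak2, the kinase PKR, fell by 1.07 ± 0.12, 1.74 ± 0.12 and 1.95 ± 0.12, and Eif2ak3, the endoplasmic reticulum kinase PERK, rose by 0.79 ± 0.14 at day 2 and 1.39 ± 0.14 at day 3. Atf4 rose by 0.69 ± 0.15, 1.36 ± 0.15 and 0.94 ± 0.15.

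Of 13 genes of mTORC1 and cap regulation, 4 rose and 2 fell at day 1, 5 and 3 at day 2, and 6 and 2 at day 3. These shares of 46.2%, 61.5% and 61.5% lay near the 45.9%, 54.4% and 59.0% of all genes. Deptor, an mTOR inhibitor, rose by 1.35 ± 0.13, 2.31 ± 0.13 and 2.26 ± 0.13, the last 4.80-fold (limma adjusted p = 1.08e-05). Mtor rose by 0.40 ± 0.11 and 0.45 ± 0.11 at days 1 and 2 and differed by 0.20 at day 3 (adjusted p = 0.16). Mknk2, a kinase of eIF4E, rose by 0.69 ± 0.08 at day 2 and 1.19 ± 0.08 at day 3. Pdcd4, an inhibitor of eIF4A, lay below detection on the day 0 arrays and was, by day 3, at least 1.54-fold higher (adjusted p = 0.000853).

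Of 11 elongation and termination genes, 6 rose and 0 fell at day 1, 4 and 3 at day 2, and 3 and 6 at day 3, called shares of 54.5%, 63.6% and 81.8% beside 45.9%, 54.4% and 59.0% of all genes. Eef1e1, of the aminoacyl-tRNA synthetase complex, rose by 0.95 ± 0.08 at day 1 and fell by 0.48 ± 0.08 at day 3, Gspt2, a termination factor, fell by 1.94 ± 0.14 at day 3, and Eef2k, the kinase that inhibits elongation factor eEF2, rose by 1.39 ± 0.21. Of 6 polyamine genes, 2 rose and 1 fell at day 1, 1 and 2 at day 2, and 2 and 2 at day 3, shares of 50%, 50% and 66.7% that lay near those of all genes. The hypusine enzyme genes Dhps and Dohh were not measured, nor were Amd1 and Sms. Srm, spermidine synthase, whose product is the substrate for hypusine, read 11.47 and 11.32 at day 0, 12.76 and 12.87 at day 1, 11.58 and 11.62 at day 2, and 10.89 and 10.80 at day 3. It rose by 1.42 ± 0.10 at day 1 (limma adjusted p = 5.39e-05) and fell by 0.55 ± 0.10 at day 3 (adjusted p = 0.00229). Oaz2, an antizyme, rose by 1.36 ± 0.08 at day 3, and Sat1, which acetylates polyamines, fell by 1.00 ± 0.10 at day 1 and rose by 0.59 ± 0.10 at day 3.

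Of 9 mitochondrial translation factors, 6 rose and 0 fell at each of days 1, 2 and 3 (66.7%, where 24.0%, 27.8% and 29.2% of all genes rose), such as Gfm1 by 1.42 ± 0.08, Tsfm by 0.66 ± 0.10 and Tufm by 0.66 ± 0.09 at day 3. Of 5 poly(A)-binding proteins and partners, 2 rose and 0 fell at day 1, 3 and 1 at day 2, and 3 and 1 at day 3 (40%, 80% and 80% called, beside 45.9%, 54.4% and 59.0% of all genes), with Pabpc4 at 1.78 ± 0.09, 1.81 ± 0.09 and 1.42 ± 0.09, Pabpc1 at 0.91 ± 0.12 on day 3 and its inhibitor Paip2 at 1.57 ± 0.18. Of 7 further initiation and recycling factors, 3 rose and 0 fell at days 1 and 2, and 2 rose and 2 fell at day 3, called shares of 42.9%, 42.9% and 57.1% that did not exceed those of all genes. Bzw2, which mimics eIF5, rose by 1.39 ± 0.13, 0.72 ± 0.13 and 0.70 ± 0.13, the helicase Dhx29 rose by 0.40 ± 0.09 at day 1 and fell by 0.52 ± 0.09 at day 3, and Abce1, which splits ribosomes after termination, fell by 0.78 ± 0.17 at day 3.

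**Figure D5:**
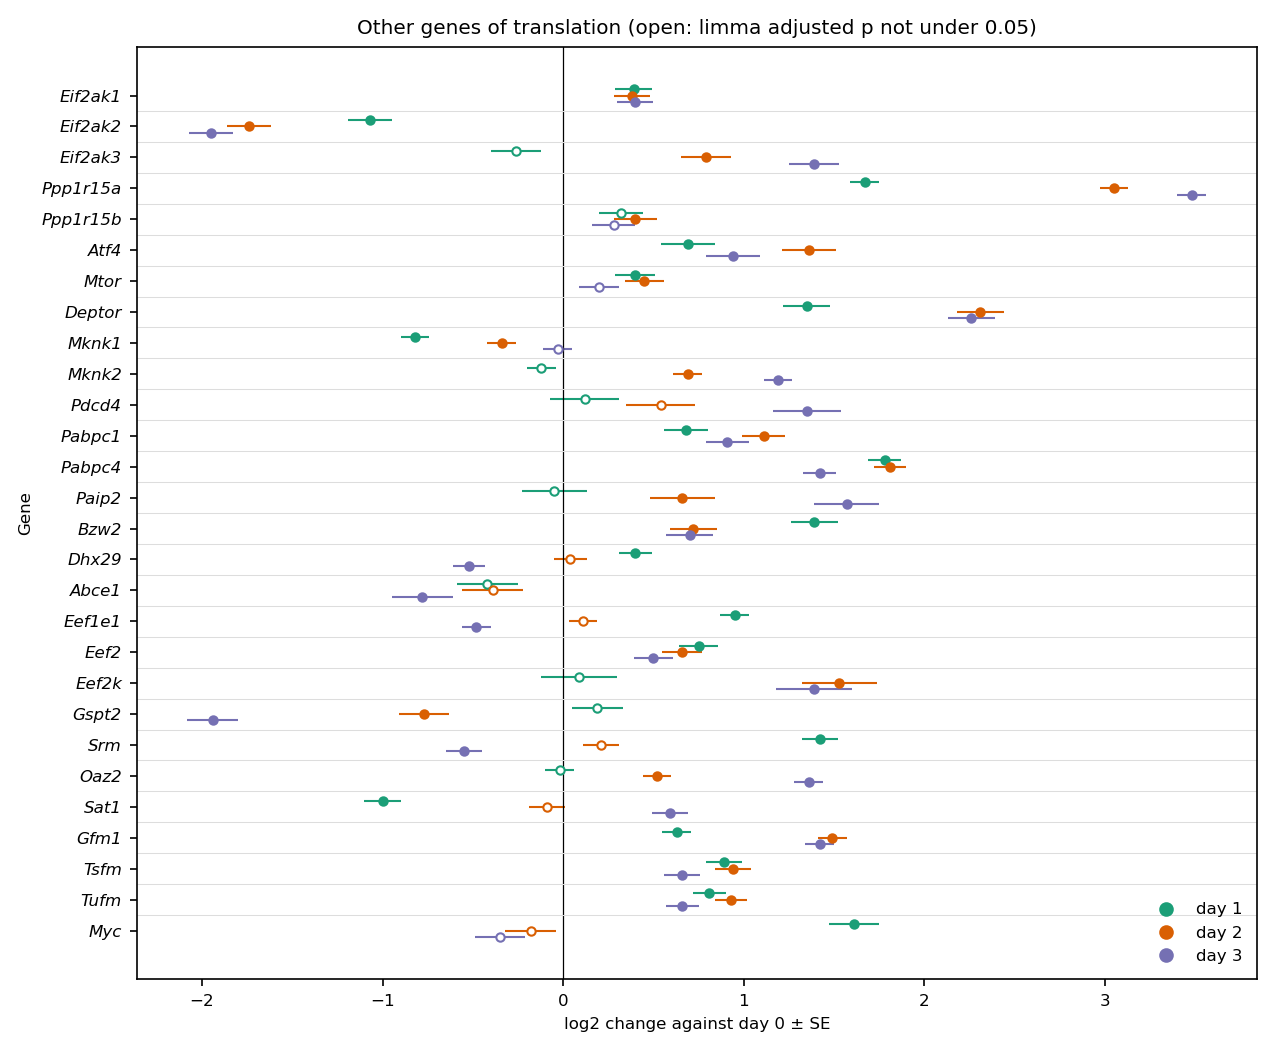
Log2 change against day 0 ± SE (horizontal axis) at days 1, 2 and 3 (colours) for 28 other genes of translation (vertical axis), from limma on 2 arrays a day. Open points did not pass. Srm, Eef1e1 and Myc are highest at day 1, whereas Ppp1r15a, Deptor, Mknk2 and Pdcd4 are higher at days 2 or 3 than at day 1.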

How the data were processed

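Total RNA of mouse macrophages at days 0, 1, 2 and 3 was labelled as biotin cRNA and hybridised to MouseRef-8 v2.0 arrays, per the labels. The authors deposited, per the file headers, a signal intensity and a detection p-value for each probe and array, and the values show a linear scale with no normalization. The authors' processed intensity, the signal less a median of 76.0 to 86.3 per array, served as an alternative and lacked 56 probes. No source used here names the scanner software.

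Signals were processed with neqc in limma 3.58.1 under R 4.3.3: normexp with negative controls inferred from detection p, offset 16, quantile normalization, log2. Of 25697 probes, 23978 had 1 symbol and 12683 passed the detection filter, 11946 of them with a symbol. The probe with the highest mean signal stood for each of 8663 genes. All 35 members matched RefSeq (GRCm38.p6) by Entrez number with 0 symbols changed. lmFit and eBayes were run on 4 days of 2 arrays (4 residual and 2.71 prior degrees of freedom), with p-values adjusted by Benjamini-Hochberg per comparison, threshold 0.05. The fit was tested on simulated data. The fold bound of an undetected gene sets the undetected day at the lowest detected level.

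All arrays have the same probes, and their number, 2 a day, limits the precision. Values on every array are given for up to 3 called members per complex with the largest change and for members called in opposite directions, either against day 0 or between 2 steps from day to day (such as Eif2b4 and Eif4h); other genes are up to 3 called members per list, and Myc, Atf4 and Mtor. Eif4a2, Eif4e2 and Eif4ebp2 were added after their values were seen. The members, complexes and gene lists were chosen with earlier results of these data known. Alternatives covered background correction, offset, scaling, filter, probe choice, variance estimate, replicate block, thresholds and each array left out.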

Additional observations from a re-analysis of the deposited data

How the results depend on the processing

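Of the called changes of single factors, 926 values kept their call and 44 lost it over the 10 settings that kept all arrays. More lost it over the fits with 1 array left out, and 0 changed direction in either. Calls of factors kept in all of these 10 settings, which leave out the stricter thresholds, numbered 17 of 23 at day 1, 14 of 16 at day 2 and 12 of 15 at day 3. Fewer were kept on each day once the fits with 1 array left out were added, and fewest at day 3. Leaving out 1 array, whose day's lone array is assumed to vary like the others, gave 17 to 21 called factors at day 1 (16 to 20 higher, 1 to 2 lower), 12 to 16 at day 2, 8 to 14 at day 3 (5 to 8 higher, 3 to 6 lower), 10 to 14 from day 1 to 2, 2 to 11 from day 2 to 3, 18 to 20 from day 1 to 3 and 20 to 23 in the F test. The day 3 count fell to 8 without day 0 replicate 2, the count lower at day 1 was then 2, 5 were higher at day 3 without day 3 replicate 1, 3 were lower without day 3 replicate 2, and the count from day 2 to day 3 fell from 10 to 2 and 3 without day 2 replicates 1 and 2 and to 4 and 3 without day 3 replicates 1 and 2. Requiring a 2-fold change left 6 factors at day 1 (6 higher, 0 lower), 3 at day 2 (2 and 1), 2 at day 3 (1 and 1), 1 from day 1 to 2, 0 from day 2 to 3 and 7 from day 1 to 3, and 7, 7 and 12 of the 31, 36 and 41 other translation genes called at days 1, 2 and 3. An adjusted p under 0.01 left 7 at day 3 (4 higher, 3 lower) and 4 from day 2 to 3, and no detection filter, which tests more genes, left 5 from day 2 to 3. The cause of the other changes was not tested. With arrays set to a common median in place of quantile normalization the median of all genes was 0.122 at day 1 and -0.204 from day 1 to 3, that of the factors 0.50 and -0.53, and 25 rose and 1 fell at day 1; with cyclic loess 18 rose and 1 fell. The replicate block gave 22, 15 and 14 called factors at days 1, 2 and 3, 13, 8 and 20 in the later comparisons, and 22 in the F test. Same-numbered arrays did not deviate together (r -0.0811 to 0.0665 over 6 pairs of days). Whether they share a mouse or culture stays unknown, since a shared effect smaller than the spread of single arrays would not show. A slide block was not run, since no slide is given in the sources used here. Probes near background, such as those of Eif4e and Eif3h, limit what could be detected.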
